A study of Homo sapiens with 4 samples.

Results

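K562, an established line grown from the cells of a chronic myeloid leukemia, has erythroid and myeloid features. Here K562 cells were transfected with the LeGO-iG2 plasmid that encodes RUNX1::ERG, a leukemia fusion gene that holds the DNA-binding domains of RUNX1 and ERG, or with LeGO-iG2 lacking an insert (empty vector). Both groups were labelled as receiving no other treatment, and each group held 2 libraries of poly(A)-enriched RNA. The transfection was transient, the plasmid also encodes green fluorescent protein, and the methods describe no sorting of transfected cells before RNA extraction, so untransfected cells may be present in both groups. The genes described are the receptors of cytokines and of TNF ligands, chosen by name. They are the protein-coding genes whose symbol starts with IL, digits and R, or with TNFRSF, plus CSF1R, CSF2RA, CSF2RB, CSF3R, IL6ST, LIFR and OSMR. The rule took 70 of the 25702 genes counted, of which 49 were interleukin or colony-stimulating factor receptor genes and 21 were TNFRSF genes. It also takes IL1RN and IL36RN, which encode secreted antagonists, and the secreted decoys TNFRSF6B and TNFRSF11B.

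Most interleukin receptors are assembled from several chains, one of which binds the ligand while another is shared between ligands. IL2RG, the common gamma chain, serves the receptors of IL-2, IL-4, IL-7, IL-9, IL-15 and IL-21, and IL6ST (gp130) serves those of the IL-6 family. The receptors built on these shared chains lack a kinase of their own and signal through JAK kinases and STAT factors, which SOCS proteins restrain. The IL-1, IL-18 and IL-17 receptors signal through adaptors such as MYD88 and ACT1, and CSF1R is itself a tyrosine kinase. TNF receptors recruit adaptors: those with a death domain can start apoptosis, and those that bind TRAF proteins activate NF-kB. In blood formation the family sets which factors a progenitor answers to, such as CSF3R for granulocytes and IL-18 and IL-1 receptors for inflammatory signals.

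The counts summed to between 59695387 and 82352144 per library. ERG had 4 counts in both empty vector libraries, against 80443 in RUNX1::ERG replicate 1 and 27218 in replicate 2. RUNX1 had 4736 and 3453 counts against 66232 and 28769. The replicates of the RUNX1::ERG group therefore differed in the amount of the fusion parts, and counts from the plasmid and from the cells' own genes were not separated. Empty vector replicate 1 stood apart in INHBE, an activin subunit gene, with 3528 counts there and 272 to 372 in the other libraries. All 9 K562 markers were present in every library, among them the globin genes HBE1, HBG1 and HBG2. Of the 7 lymphocyte markers MS4A1 had no counts, and the list's summed level was 36.6 and 38.2 normalised CPM with the empty vector and 26.8 and 29.0 with RUNX1::ERG, most of it CD3D. CPM express each count relative to the total of its library, in parts per M, with the totals adjusted by edgeR's TMM method.

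Of the 70 receptor genes, 45 had enough counts to be tested. The other 25 had at most 26 counts in any library, and 6 of them (CSF2RA, IL1RAPL2, IL1RL2, IL20RA, TNFRSF11B and TNFRSF13B) had none. Besides those described in the following, the genes left untested were IL17RD, IL22RA1, IL22RA2, IL31RA, TNFRSF4, TNFRSF17 and TNFRSF19 and the antagonist genes IL1RN and IL36RN. A count of 0 allows up to 3 counts, or 0.0364 to 0.0503 CPM depending on the library, and covers counting error only. CSF2RA, IL3RA and IL9R lie in the regions that the X and Y chromosomes share. Reads from such genes match both copies, and whether the authors' counting kept them is not given in the sources used here, so their low counts (at most 32 in a library) are uncertain.

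Per kb of exon, TNFRSF1B, the second TNF receptor, stood first, at 35.9 CPM per kb with the empty vector and 26.5 with RUNX1::ERG. IL27RA, the ligand-binding chain of the IL-27 receptor, followed at 14.4 and 21.7, and TNFRSF12A, the receptor of TWEAK, at 14.8 and 16.9. The libraries of IL27RA and TNFRSF12A overlapped, from 13.9 to 24.3 and from 11.8 to 22.1 CPM per kb, so the order of these 2 genes is not separated by their spread. IL2RG, TNFRSF8 (CD30), TNFRSF10A and TNFRSF1A came next, with means over the groups between 8.86 and 9.68 CPM per kb and libraries that overlapped from gene to gene. TNFRSF10B, TNFRSF6B, IL13RA1, IL15RA and IL17RC completed the first 12 by the mean over both groups, which together held 71.0% of the summed CPM of the whole family. With RUNX1::ERG alone TNFRSF10B, at 3.23 CPM per kb against 11.2 with the empty vector, was below IL6ST (3.65) and IL10RB (3.51). With the empty vector alone the mean of IL20RB, 4.45 CPM per kb, was above that of IL17RC, 3.11. This order rested on replicate 1, where IL20RB was at 7.93 and IL17RC at 3.82 CPM per kb. In replicate 2 IL20RB, at 0.975 CPM per kb, was below IL17RC, at 2.41. All of the exon sequence of TNFRSF6B is shared with the read-through gene RTEL1-TNFRSF6B, so its level may include reads of the latter. Likewise 51.3% of the exon bases of IL2RG, 46.5% of those of IL17RC, 32.5% of those of IL11RA and 21.6% of those of IL10RB are shared with another annotated gene on the same strand, and the counts of these genes are uncertain to that extent. At the other end, 37 of the 70 genes stayed at or under 1 CPM in every library, and 16 were above 10 CPM in every library.

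**Figure D1:**
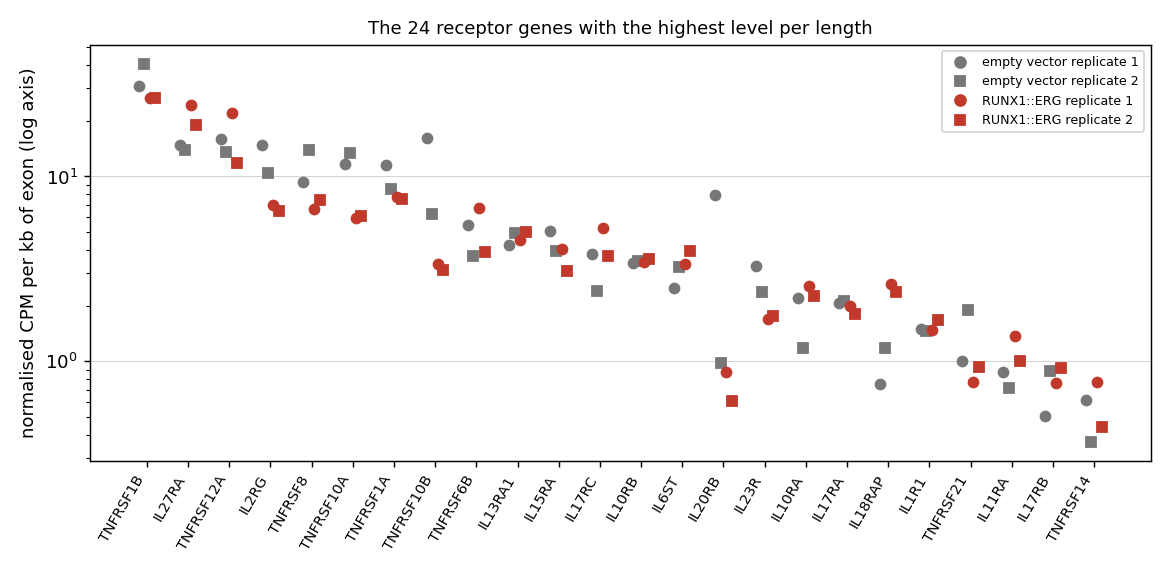
Levels of the 24 receptor genes with the highest mean, as normalised CPM per kb of exon on a log axis, with 1 point for each library (grey, empty vector; red, RUNX1::ERG; circles, replicate 1; squares, replicate 2). TNFRSF1B lies above the other genes, and both red points of IL2RG, TNFRSF10A and TNFRSF10B lie below both grey points.

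The comparison of RUNX1::ERG with the empty vector asks which receptor genes differ when the fusion is expressed. Of the 45 genes tested, 8 passed the threshold of 0.05 after Benjamini-Hochberg adjustment over all genes (edgeR, quasi-likelihood). Of all 15394 genes tested, 4.79% passed. Higher with RUNX1::ERG were IL6R, CSF3R, IL18RAP and TNFRSF11A, and lower were TNFRSF10A, TNFRSF10B, IL4R and IL2RG. The 4 higher genes were all low in K562 cells, under 8 CPM in every library, whereas TNFRSF10A, TNFRSF10B and IL2RG were among the most abundant receptor genes. By direction, 3.64% of all genes tested were called higher and 1.15% lower. In the family, 13 of the genes tested lay higher and 12 lower with no overlap between the groups, against 25.1% and 22.1% of all genes tested. In both directions together, 13 genes also had a log2 fold change of at least 1 in size, against 8.91% of all genes tested. They include IL12RB1, IL13RA2, TNFRSF9 and TNFRSF11A, which passed the filter on low counts only through the RUNX1::ERG libraries. In the family 17 genes had an unadjusted p under 0.05 by edgeR's test, against 18% of all genes tested. The median log2 fold change was 0.22 over the 45 genes and -0.0017 over all genes tested. Leaving out any library leaves its group with 1 library, and the spread then comes from the other group's pair alone, so every p-value with a library left out assumes that the lone library varies like that pair. Without RUNX1::ERG replicate 1, TNFRSF10B alone among the receptor genes was called (1.81% of all genes), and without empty vector replicate 1 the count was 11 (7.68% of all genes). Leaving out the second library of the empty vector gave 11 (8.32%), and leaving out that of RUNX1::ERG gave 8 (4.72%). With all libraries, the count was 5 with library totals (4.01% of all genes), 7 with at least 10 counts in every library (4.51%) or limma voom (4.47%), 8 with halved counts (5.09%), 9 with DESeq2 size factors (5.26%), 10 with the DESeq2 Wald test (5.88%), and 13 without a filter (7.38%) or with the replicate number as a block (11.3%). Fewer cells expressing a gene and less RNA per cell cannot be told apart in these libraries.

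**Figure D2:**
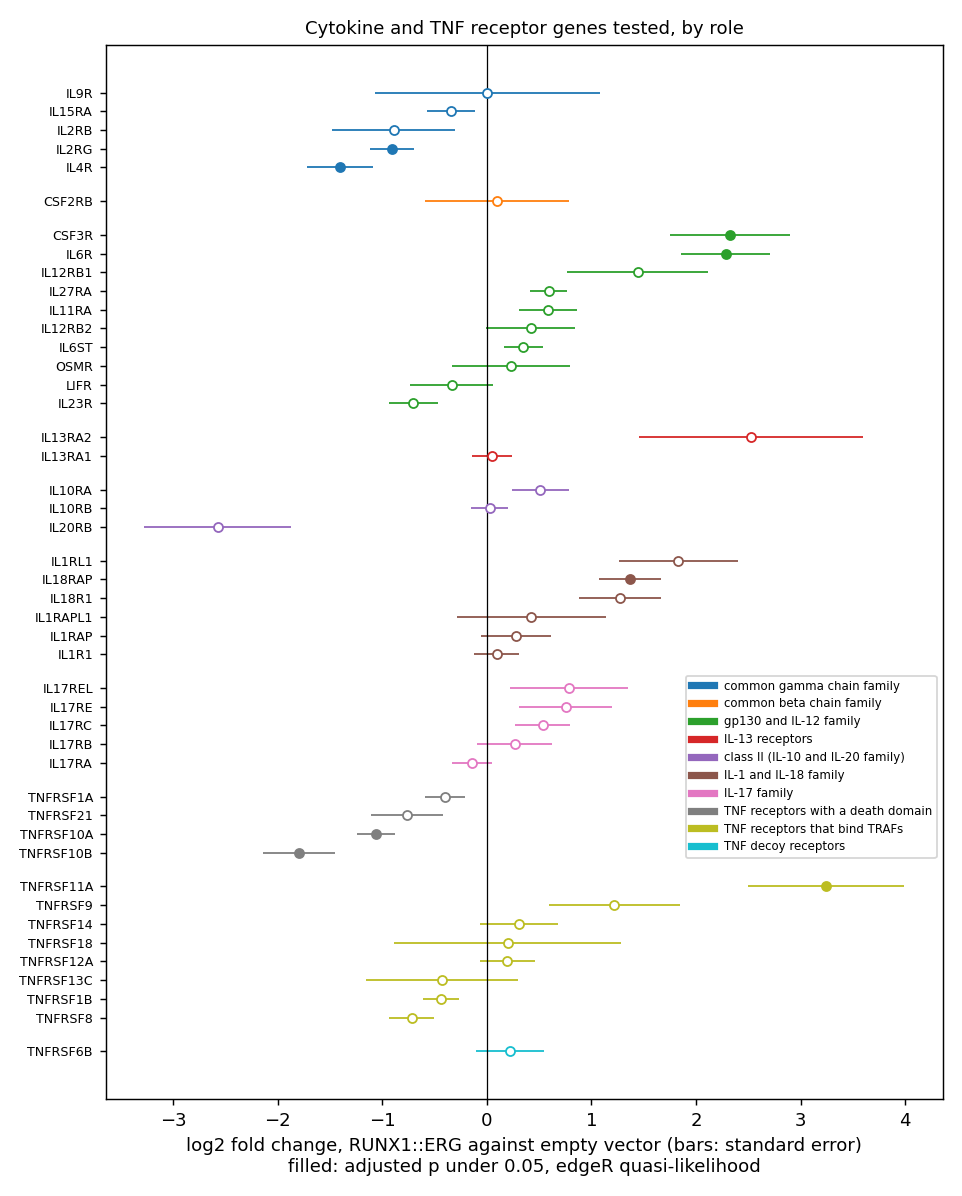
Log2 fold change of each of the 45 receptor genes tested (points, with the standard error as bars), grouped by role; filled points passed an adjusted p of 0.05. The filled points are IL4R and IL2RG on the lower side of the gamma chain family, CSF3R and IL6R on the higher side of the gp130 family, IL18RAP, TNFRSF10A and TNFRSF10B, and TNFRSF11A.

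Of the 5 receptors with a death domain, 4 were tested and 2 fell, where 1.15% of all genes tested were called lower. The median log2 fold change of the 4 was -0.91. TNFRSF10A and TNFRSF10B encode DR4 and DR5, the receptors through which TRAIL starts apoptosis, and lie in a row of 4 receptor genes on chromosome 8. TNFRSF10A (NCBI gene 8797, chr8:23047965-23082615 of GRCh37) was at 34.3 and 39.4 CPM in empty vector replicates 1 and 2, and at 17.5 and 17.8 CPM in RUNX1::ERG replicates 1 and 2. The empty vector libraries did not overlap with the RUNX1::ERG libraries, and the log2 fold change was -1.06 ± 0.18 (SE; edgeR adjusted p = 0.00875). TNFRSF10B (NCBI gene 8795, chr8:22877646-22926544) was at 81.1 and 31.4 CPM with the empty vector and at 16.8 and 15.5 CPM with RUNX1::ERG. Its log2 fold change was -1.80 ± 0.35 (SE; edgeR adjusted p = 0.0157). Empty vector replicate 1 was far above the other libraries. Without it, the log2 fold change of TNFRSF10B was -0.96 (edgeR adjusted p = 0.0025) and that of TNFRSF10A was -1.16 (edgeR adjusted p = 6.2e-05), both on the assumption that the lone empty vector library varies like the RUNX1::ERG pair. With the DESeq2 Wald test the adjusted p of TNFRSF10B was 0.054.

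The decoys of the same ligand, TNFRSF10C and TNFRSF10D, lie between them on the chromosome and were near the limit of detection, with at most 11 and 4 counts in a library. TRAIL itself, TNFSF10, had at most 6 counts. TNFRSF21 (DR6) was at 3.60 and 6.79 CPM with the empty vector and 2.76 and 3.37 CPM with RUNX1::ERG, a log2 fold change of -0.76 that did not pass (adjusted p = 0.272, edgeR). It was called without empty vector replicate 1, at -1.15 (edgeR adjusted p = 0.00721), and was -0.24 without empty vector replicate 2. TNFRSF1A, the main receptor of TNF, was at 48.8 and 36.0 CPM against 32.4 and 31.9 CPM, with a log2 fold change of -0.40 (adjusted p = 0.314). In all 4 death domain receptors tested the RUNX1::ERG libraries were lower with no overlap, as were 22.1% of all genes tested. The fifth, TNFRSF25, had at most 10 counts. FAS, a death receptor outside the naming rule, overlapped between the groups at 1.73 and 0.908 CPM against 1.15 and 1.17 CPM.

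Summed over the 21 TNFRSF genes, the level was 361 and 352 CPM with the empty vector and 251 and 227 CPM with RUNX1::ERG. The sum rested mostly on TNFRSF1B, TNFRSF8, TNFRSF1A, TNFRSF10A and TNFRSF10B. TNFRSF1B was at 117 and 154 CPM against 101 and 99.9 CPM, a log2 fold change of -0.44 (edgeR adjusted p = 0.211). TNFRSF8 (CD30), which binds TRAF proteins, was at 35.8 and 52.8 CPM against 25.4 and 28.4 CPM, a log2 fold change of -0.72 (edgeR adjusted p = 0.0854). TNFRSF8 passed under 3 of the 8 other settings with all libraries, with adjusted p from 0.00697 to 0.103 by setting. It was also called without empty vector replicate 1, at -0.98 (edgeR adjusted p = 0.000982), and was -0.41 without empty vector replicate 2. Among interleukin and colony-stimulating factor receptors the summed levels overlapped, at 307 and 264 CPM with the empty vector and 320 and 294 CPM with RUNX1::ERG.

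Of the TRAF-binding receptors, 8 of 12 were tested and 1 was called, against 4.79% of all genes tested. TNFRSF11A (NCBI gene 8792, chr18:59992520-60058521), which encodes RANK, the receptor of the osteoclast factor RANKL, had 1 and 11 counts with the empty vector and 74 and 61 counts with RUNX1::ERG. Both RUNX1::ERG libraries were well above both empty vector libraries, at 0.878 and 0.849 CPM against 0.0166 and 0.156 CPM. Its log2 fold change was 3.25 ± 0.75 (SE; edgeR adjusted p = 0.0344). TNFRSF11A passed the filter on low counts only through the RUNX1::ERG libraries, and the size rests on very few empty vector counts. It was 2.45 without empty vector replicate 1 and 5.56 without empty vector replicate 2. TNFRSF9 (4-1BB) had 12 and 10 counts against 41 and 22 counts, a log2 fold change of 1.22 that did not pass (adjusted p = 0.352, edgeR). It too was past the filter on low counts only through the RUNX1::ERG libraries. TNFRSF12A, TNFRSF14 (HVEM), TNFRSF13C (the BAFF receptor) and TNFRSF18 (GITR) overlapped between the groups. The ligands RANKL (TNFSF11) and TNF had no counts.

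**Figure D3:**
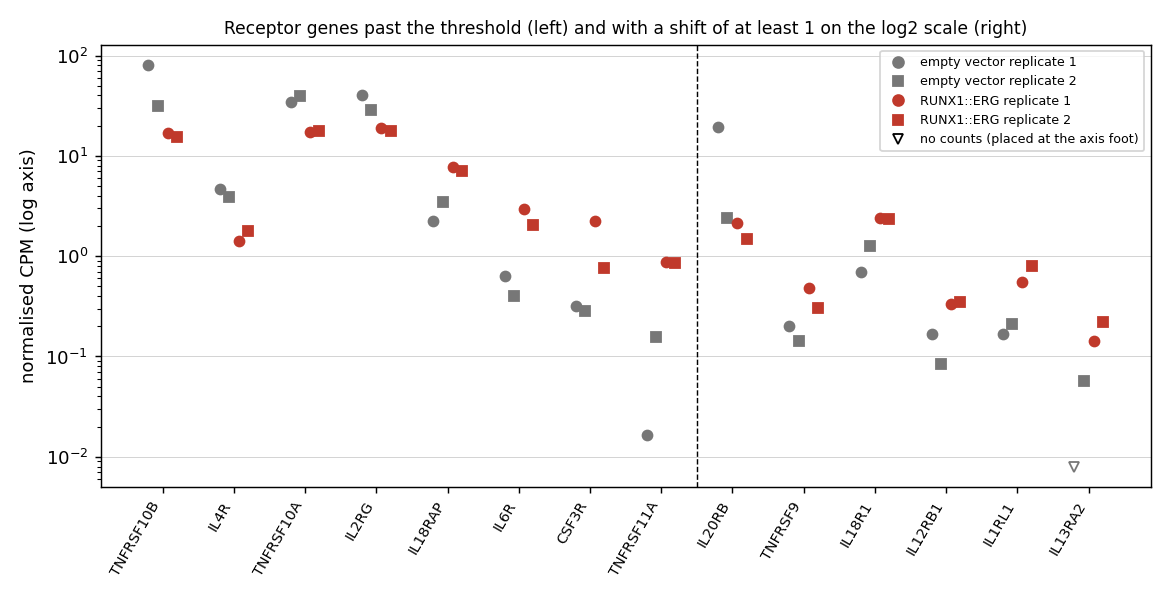
Normalised CPM on a log axis in each of the 4 libraries for the 8 receptor genes past the threshold (left of the dashed line) and 6 further genes with a log2 fold change of at least 1 in size and no overlap between the groups (right); an open triangle marks a library with no counts. Empty vector replicate 1 lies apart from the other libraries in IL20RB and TNFRSF10B.

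The gamma chain family held the other lowered genes, and the median log2 fold change of its 5 members tested was -0.89. IL4R (NCBI gene 3566, chr16:27324989-27376099) encodes the chain that binds IL-4 and that also serves IL-13. It was at 4.63 and 3.87 CPM with the empty vector and at 1.42 and 1.79 CPM with RUNX1::ERG. The groups did not overlap, and the log2 fold change was -1.40 ± 0.32 (SE; edgeR adjusted p = 0.0315). IL2RG (NCBI gene 3561, chrX:70327254-70331958) was at 40.6 and 28.5 CPM against 19.1 and 17.7 CPM. Its log2 fold change was -0.91 ± 0.21 (SE; edgeR adjusted p = 0.0358). IL2RG was not past the threshold without empty vector replicate 1, at -0.63 (adjusted p = 0.095, edgeR), nor without RUNX1::ERG replicate 2, at -0.87 (adjusted p = 0.056), and IL4R was called in both cases. Without RUNX1::ERG replicate 1, IL2RG was at -0.96 (edgeR adjusted p = 0.109) and IL4R at -1.24 (edgeR adjusted p = 0.241). IL2RG is abundant in lymphocytes. All libraries were labelled K562 cells, and in them the lymphocyte markers went in both directions. CD3D was at 32.5 and 34.7 CPM against 20.5 and 23.6 CPM (edgeR adjusted p = 0.0899), and CD3G at 1.73 and 2.06 CPM against 4.22 and 3.99 CPM (edgeR adjusted p = 0.0642). None of the 4 lymphocyte markers tested passed by edgeR's test, 2 had an unadjusted p under 0.05, and the median log2 fold change was 0.15. Any relation of these markers to the level of IL2RG was not tested. With library totals alone as the scaling, neither passed, with an edgeR adjusted p of 0.0501 for IL4R and 0.0614 for IL2RG.

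IL4R and IL2RG together form the type I receptor of IL-4, and IL4R pairs with IL13RA1 in the type II receptor. IL13RA1 was at 19.9 and 23.0 CPM with the empty vector and 21.0 and 23.3 CPM with RUNX1::ERG, with no separation between the groups. IL13RA2, a decoy of IL-13, had 0 and 4 counts against 12 and 16 counts and did not pass (adjusted p = 0.244, edgeR). The other chains that pair with IL2RG were low or did not pass. IL15RA was at 18.4 and 14.4 CPM against 14.8 and 11.1 CPM, and IL2RB, shared by IL-2 and IL-15, had 47 and 27 counts against 21 and 27 counts. IL2RA, IL7R and IL21R had at most 20 counts in a library. IL4 and IL13 themselves had at most 7 and 2 counts.

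In the gp130 and IL-12 family the ligand-binding chains IL6R and CSF3R rose, and the median log2 fold change of the 10 genes tested was 0.50. IL6R (NCBI gene 3570, chr1:154377669-154441926), the IL-6 receptor, had 38 and 28 counts with the empty vector and 248 and 147 counts with RUNX1::ERG. These are 0.631 and 0.397 CPM against 2.94 and 2.04 CPM, with no overlap between the groups. The log2 fold change was 2.28 ± 0.42 (SE; edgeR adjusted p = 0.0123). CSF3R (NCBI gene 1441, chr1:36931644-36948879), the receptor of the granulocyte factor G-CSF, had 19 and 20 counts with the empty vector, 188 in RUNX1::ERG replicate 1 and 55 in replicate 2. In the RUNX1::ERG group the amount of fusion and the replicate cannot be told apart. The replicate with more ERG counts had the higher level of CSF3R, at 2.23 CPM against 0.765 CPM in the other. Its log2 fold change was 2.32 ± 0.57 (SE; edgeR adjusted p = 0.0459), and it was 1.35 without RUNX1::ERG replicate 1 (adjusted p = 0.57, edgeR). The call of CSF3R was lost with library totals (adjusted p = 0.06) and with limma voom (adjusted p = 0.1).

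The signalling partner of IL6R, IL6ST, was at 30.2 and 38.9 CPM with the empty vector and 40.7 and 47.5 CPM with RUNX1::ERG. The difference of 0.35 on the log2 scale did not pass (adjusted p = 0.383, edgeR). IL27RA, which also works with IL6ST, was at 43.8 and 41.1 CPM against 71.6 and 56.3 CPM, and the log2 fold change was 0.59 ± 0.18 (SE; edgeR adjusted p = 0.0907). It passed under 3 of the 8 other settings with all libraries, with adjusted p from 0.0226 to 0.0993 by setting. IL11RA, the IL-11 chain, was at 4.58 and 3.76 CPM against 7.22 and 5.29 CPM (adjusted p = 0.31). IL12RB1 had 10 and 6 counts against 28 and 25 counts, with a log2 fold change of 1.44 (edgeR adjusted p = 0.295). It was past the filter on low counts only through the RUNX1::ERG libraries. IL23R, which pairs with IL12RB1 to bind IL-23, was at 14.9 and 10.8 CPM against 7.71 and 8.07 CPM, with a log2 fold change of -0.70 (edgeR adjusted p = 0.132). IL23R passed with the DESeq2 Wald test (adjusted p = 0.0492) and with the replicate block, and was -0.46 without empty vector replicate 1 (edgeR adjusted p = 0.398) and -0.91 without empty vector replicate 2 (edgeR adjusted p = 0.0165). LIFR and OSMR, the chains for LIF and oncostatin M, and IL12RB2, the second IL-12 chain, overlapped between the groups.

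CSF1R, the M-CSF receptor, is the gene whose promoter the study placed in a reporter as a target of RUNX1. The reporter was read in another cell line, where the study reports that RUNX1::ERG could attenuate activation by RUNX1. It is a measure unlike the RNA of the cells' own gene. In the K562 libraries CSF1R had 3 counts in both empty vector libraries, 18 in RUNX1::ERG replicate 1 and 4 in replicate 2. It was under the filter, and a count of 0 would allow 3. The common beta chain CSF2RB, which serves IL-3, IL-5 and GM-CSF, had 18 and 10 counts against 25 and 12 counts. Its partners IL5RA and IL3RA had at most 4 counts.

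In the IL-1 and IL-18 family, IL18RAP (NCBI gene 8807, chr2:103035149-103069025), the accessory chain of the IL-18 receptor, rose, and the median log2 fold change of the 6 genes tested was 0.85. It was at 2.24 and 3.49 CPM with the empty vector and at 7.80 and 7.01 CPM with RUNX1::ERG, with no overlap. The log2 fold change was 1.37 ± 0.30 (SE; edgeR adjusted p = 0.0267). IL18R1, the chain that binds IL-18, was at 0.697 and 1.26 CPM against 2.41 and 2.35 CPM. Its log2 fold change of 1.27 did not pass (adjusted p = 0.102, edgeR), but did without a filter on low counts (0.018) and with the replicate block (0.0331). It was 0.91 without empty vector replicate 1 (edgeR adjusted p = 0.207) and 1.77 without empty vector replicate 2 (edgeR adjusted p = 0.00476). IL1RL1, the receptor of IL-33, had 10 and 15 counts against 47 and 58 counts, with a log2 fold change of 1.83 (edgeR adjusted p = 0.102), and was called without a filter (adjusted p = 0.0381).

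These 3 genes lie next to each other on chromosome 2, within a row of 6 receptor genes from IL1R2 to IL18RAP between 102608422 and 103069025 of GRCh37. IL1RL1 and IL18R1 share 95 bases of exon. All 3 were higher with no overlap between the groups, as were 25.1% of all genes tested. The other genes of the row did not show this. IL1R1, the signalling receptor of IL-1, was at 10.6 and 10.4 CPM against 10.5 and 12 CPM, IL1R2, a decoy, had at most 8 counts, and IL1RL2 had none. IL1RAP, the chain that IL1R1 and IL1RL1 share, lies on chromosome 3 and overlapped at 2.84 and 2.14 CPM against 2.47 and 3.59 CPM. The ligand IL18 overlapped as well, at 11.3 and 7.30 CPM against 10.7 and 9.17 CPM.

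**Figure D4:**
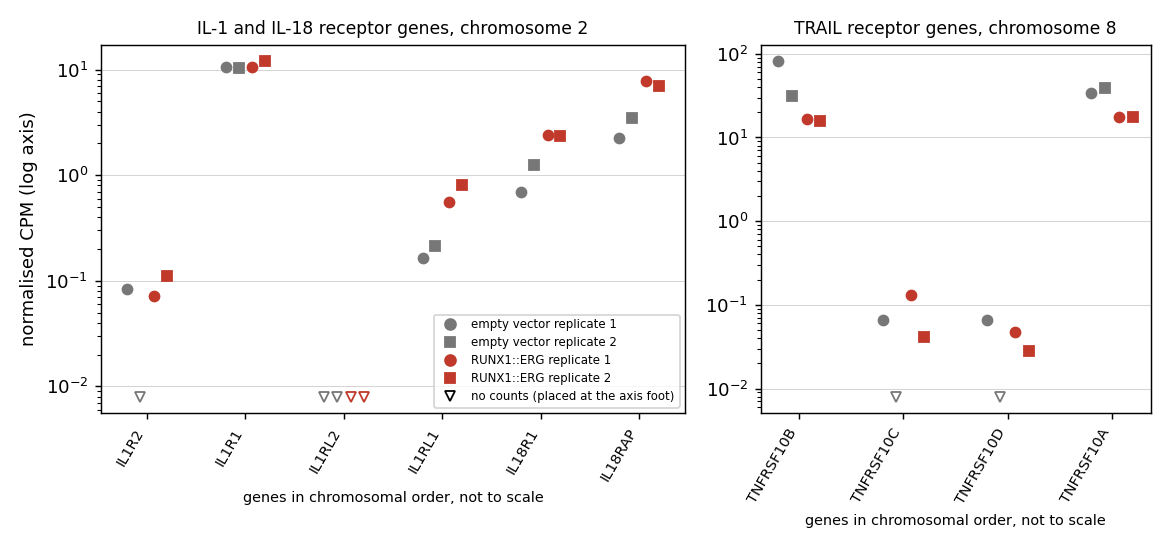
Normalised CPM on a log axis for the receptor genes of the IL-1 and IL-18 row on chromosome 2 (left) and of the TRAIL receptor row on chromosome 8 (right), in chromosomal order and not to scale, with 1 point for each library; open triangles mark libraries with no counts. On the left the red points lie above the grey points in IL1RL1, IL18R1 and IL18RAP and not in IL1R1, and on the right they lie below in TNFRSF10B and TNFRSF10A.

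IL20RB, a chain of the receptors of IL-20 and IL-24, had the lowest log2 fold change of the genes tested in the family and did not pass. It had 1167 counts in empty vector replicate 1 and 168 in replicate 2, against 181 and 107 counts with RUNX1::ERG. On the log2 scale the difference was -2.58 ± 0.71 (SE; edgeR adjusted p = 0.0673) and rested on empty vector replicate 1, without which it was -0.39 (edgeR adjusted p = 0.68). It was -3.41 without empty vector replicate 2, where that high library is the only control. The same library was the one with the high level of INHBE. IL20RB passed under 3 of the 8 other settings with all libraries, namely DESeq2 size factors, no filter and the replicate block. By setting, its adjusted p ran from 2.15e-15 without a filter to 0.291 with limma voom. The partner chain IL20RA had no counts. Of the IL-10 receptor, IL10RB was at 27.3 and 28.0 CPM against 27.8 and 28.7 CPM, with overlap, and IL10RA was at 19.4 and 10.4 CPM against 22.6 and 19.8 CPM (adjusted p = 0.368). IL10RA was called without empty vector replicate 1, at 1.02 (edgeR adjusted p = 0.00452), and was 0.13 without empty vector replicate 2. With all libraries, none of the 5 genes of the IL-17 family that were tested passed by edgeR's quasi-likelihood test, and none had an unadjusted p under 0.05 or passed with DESeq2 or limma voom. IL17RA, the chain shared by this family, was at 19.2 and 19.7 CPM against 18.5 and 16.7 CPM, and IL17RC was at 17.3 and 10.9 CPM against 24 and 16.8 CPM. IL17RC had a log2 fold change of 0.53, which without empty vector replicate 1 was 0.90 and called (edgeR adjusted p = 0.0163), and 0.24 without empty vector replicate 2.

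The promoters of the called genes are shown because the fusion carries the DNA-binding domains of RUNX1 and of ERG, an ETS factor, and because these genes moved in either direction. Promoter sequences of RefSeq (GRCh38.p14) were matched for 55 of the 70 genes, and the 250 bases before the annotated start are given 5′ to 3′ on the strand of the gene. Capitals mark the ETS core GGAA and the RUNX motif TGNGGT on either strand (TTCC and ACCNCA when read on the other strand), and no marked matches overlap. The first 4 genes were higher and the last 2 lower with RUNX1::ERG, and the promoters of TNFRSF10A and TNFRSF10B are not shown.
IL6R (chr1:154405093-154405342, + strand): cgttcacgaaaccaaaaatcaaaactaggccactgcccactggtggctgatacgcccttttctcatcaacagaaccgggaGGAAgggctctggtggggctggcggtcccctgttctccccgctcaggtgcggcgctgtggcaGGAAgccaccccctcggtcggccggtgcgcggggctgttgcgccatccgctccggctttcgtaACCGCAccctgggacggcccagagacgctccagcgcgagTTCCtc
CSF3R (chr1:36483315-36483564, - strand): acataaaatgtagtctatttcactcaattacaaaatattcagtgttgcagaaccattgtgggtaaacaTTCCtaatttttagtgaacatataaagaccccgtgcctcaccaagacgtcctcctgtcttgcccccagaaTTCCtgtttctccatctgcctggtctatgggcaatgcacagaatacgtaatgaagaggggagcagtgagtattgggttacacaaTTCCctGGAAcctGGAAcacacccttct
IL18RAP (chr2:102418371-102418620, + strand): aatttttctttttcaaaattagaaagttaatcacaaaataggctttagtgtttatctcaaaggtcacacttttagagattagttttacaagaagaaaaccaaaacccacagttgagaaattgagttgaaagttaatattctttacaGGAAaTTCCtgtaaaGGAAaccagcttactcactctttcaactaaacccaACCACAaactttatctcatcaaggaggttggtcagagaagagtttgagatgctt
TNFRSF11A (chr18:62325060-62325309, + strand): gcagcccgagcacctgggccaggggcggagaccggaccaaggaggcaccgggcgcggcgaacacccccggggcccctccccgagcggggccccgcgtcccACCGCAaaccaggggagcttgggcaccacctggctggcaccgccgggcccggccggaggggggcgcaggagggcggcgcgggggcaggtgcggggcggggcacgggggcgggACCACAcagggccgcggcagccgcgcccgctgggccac
IL4R (chr16:27313724-27313973, + strand): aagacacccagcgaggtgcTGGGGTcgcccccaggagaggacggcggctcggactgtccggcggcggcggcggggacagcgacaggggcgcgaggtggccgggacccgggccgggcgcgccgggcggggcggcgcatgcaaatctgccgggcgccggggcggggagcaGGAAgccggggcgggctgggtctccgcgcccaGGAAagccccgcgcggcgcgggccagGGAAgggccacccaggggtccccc
IL2RG (chrX:71111578-71111827, - strand): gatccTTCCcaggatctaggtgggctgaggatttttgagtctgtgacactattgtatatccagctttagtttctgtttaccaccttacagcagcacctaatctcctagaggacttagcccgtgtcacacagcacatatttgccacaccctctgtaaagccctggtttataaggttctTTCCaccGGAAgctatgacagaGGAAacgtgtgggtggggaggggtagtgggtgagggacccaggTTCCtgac

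The ETS core occurred 3 times in IL6R, IL18RAP and IL4R, 5 times in CSF3R and IL2RG, and not in TNFRSF11A. The RUNX motif occurred 2 times in TNFRSF11A, once each in IL6R, IL18RAP and IL4R, and not in CSF3R or IL2RG. Such short motifs are common. GGAA was found in 92.8% of all 27305 promoter windows and in 51 of the 55 receptor windows, and TGNGGT in 37.6% of all windows and in 28 of the 55. Both motifs were thus found above genes that were higher and above genes that were lower. A match of letters is a description only and says nothing about binding, and the start that K562 cells use may differ from the annotated one.

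The genes around the receptors were taken from lists of ligands, other receptors and signalling proteins, whose shares of called genes are to be read against the 4.79% called of all genes tested. Of the 25 receptors outside the naming rule, 17 were tested and 1 was called, which was EPOR, the erythropoietin receptor. It was at 41.6 CPM in both empty vector libraries and at 89.1 and 62.8 CPM with RUNX1::ERG, giving a log2 fold change of 0.87 ± 0.19 (SE; edgeR adjusted p = 0.0297). Without RUNX1::ERG replicate 1 it was 0.59 (edgeR adjusted p = 0.245). Of 44 interleukin and colony-stimulating ligands, 17 were tested and IL1A was called. It had 18 and 22 counts against 190 and 111 counts, and the log2 fold change was 2.63 ± 0.45 (SE; edgeR adjusted p = 0.00806), and 2.33 without RUNX1::ERG replicate 1 (adjusted p = 0.0938). Its receptor IL1R1 did not pass, as given above. None of the 7 TNF ligands tested passed by edgeR's quasi-likelihood test, and none had an unadjusted p under 0.05 by that test.

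Downstream of the receptors, STAT6, the factor that IL-4 and IL-13 activate, was at 64.8 and 53.8 CPM with the empty vector and at 37.6 and 28.5 CPM with RUNX1::ERG. Both RUNX1::ERG libraries were lower, and the log2 fold change was -0.84 ± 0.19 (SE; edgeR adjusted p = 0.0344). It was -0.67 without RUNX1::ERG replicate 2 (adjusted p = 0.13), and the call was also lost with library totals (edgeR adjusted p = 0.0581). STAT6 was the only gene called of the 10 JAK kinases and STATs tested, whose median log2 fold change was 0.12. JAK3, the kinase that binds the gamma chain, had 13 and 34 counts against 123 and 82 counts and did not pass (adjusted p = 0.0645, edgeR). Of the 16 JAK-STAT inhibitors, SOCS3, a brake on gp130 and CSF3R signalling, was called. It was at 46.7 and 40.3 CPM against 26.9 and 19.4 CPM, and the log2 fold change was -0.91 ± 0.21 (SE; edgeR adjusted p = 0.0315), and -0.71 without RUNX1::ERG replicate 2 (adjusted p = 0.13). With library totals its edgeR adjusted p was 0.0546. Of the 33 TNF receptor adaptors and NF-kB proteins, NFKBIA, the inhibitor of NF-kB that NF-kB itself induces, was called. It was at 13.1 and 14.5 CPM against 28.5 and 24.4 CPM, and the log2 fold change was 0.94 ± 0.19 (SE; edgeR adjusted p = 0.0219), and 0.82 without RUNX1::ERG replicate 1 (adjusted p = 0.15). The medians of the last 2 lists were 0.06 and 0.04, against -0.0017 over all genes tested.

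**Figure D5:**
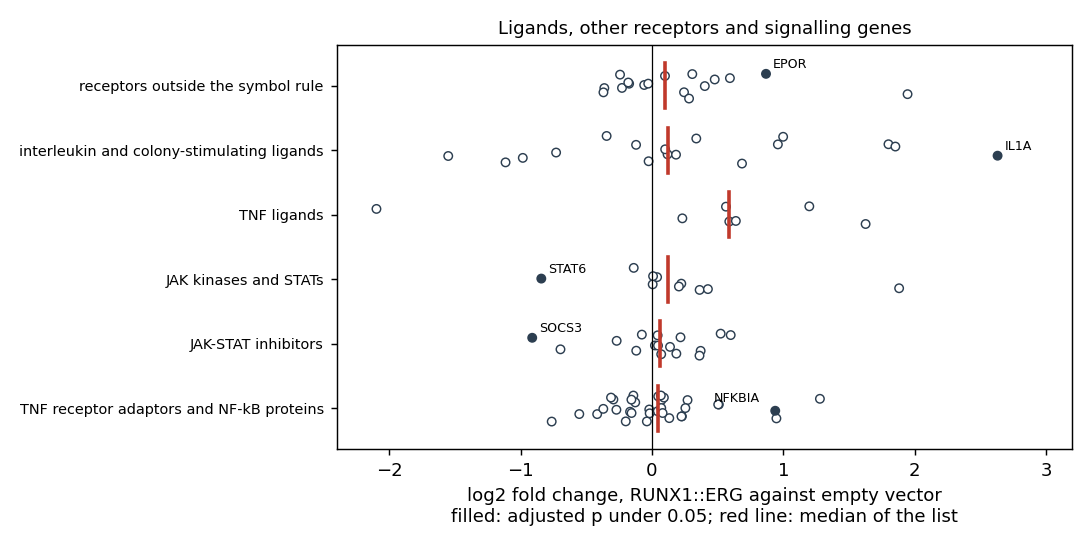
Log2 fold change of each tested gene in 6 lists of ligands, other receptors and signalling genes (points; filled, adjusted p under 0.05), with the median of each list as a red line. The filled points are EPOR, IL1A, STAT6, SOCS3 and NFKBIA, and the TNF ligands have none.

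Some markers of other blood cells rose as well. Of the 6 monocyte and macrophage markers, CD14 had 11 and 30 counts with the empty vector and 325 and 143 counts with RUNX1::ERG, a log2 fold change of 3.24 (edgeR adjusted p = 0.0058). The summed level of that list was 0.963 and 0.652 CPM against 4.18 and 2.23 CPM, and with RUNX1::ERG most of it was CD14. FCGR3A was lower, with 42 and 10 counts against 8 and 3 counts and too few to be tested, and VCAN had 4 and 6 counts against 13 and 14 counts and did not pass (edgeR adjusted p = 0.498). CD163 had no counts, and MRC1 and S100A12 had at most 4. Of the 10 megakaryocyte and platelet markers, 7 were tested and 6 were called higher, against 3.64% of all genes tested. The summed level of the 10 went from 74.4 and 85.2 CPM to 495 and 433 CPM. The part of such a shift in the values of IL6R, CSF3R, IL18RAP and TNFRSF11A was not tested.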

How the data were processed

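Whole transcriptome sequencing was performed on 4 K562 libraries, 2 per group. The files deposited by the authors hold unnormalised counts for NCBI gene numbers, and the submitters' notes name HISAT2 2.2.1 and featureCounts 2.0.1 with hg19. The annotation and strand setting are not given in the sources used here, so overlapping and antisense genes are uncertain. Of the counts from 1 to 10, 66.7% to 68.9% per library were even, so the 2 mates of a pair may have been counted separately, and independent fragments may be fewer than counts. Gene numbers were matched to RefSeq symbols (92.2% of 25702), and positions and exon lengths come from GENCODE on GRCh37.

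Counts were compared in R 4.3.3 with edgeR 4.0.16 (TMM, its filter on low counts, quasi-likelihood test, Benjamini-Hochberg, threshold 0.05, two-sided). Standard errors are the log2 fold change divided by the square root of F. Alternatives were other scalings and filters, halved counts, a replicate block, DESeq2 1.42.0, limma 3.58.1 voom and leaving out each library. The test was checked on simulated counts with the same spread for every gene, no deviation shared by replicate number and no outlying library. That check does not cover such features of these data. The methods name biological replicates without saying how they were separated. Genes were named if called, if among the 12 highest per kb, if the groups did not overlap at a log2 fold change of at least 1 in size, or as partners of these. The members and lists were chosen with earlier results of these data known.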

Additional observations from a re-analysis of the deposited data

How the results depend on the processing

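With all 4 libraries, the 8 receptor genes kept their direction under every alternative run. IL6R, IL18RAP and TNFRSF10A were called under all 8. The number called was 5 with library totals (2 lower), 13 without a filter (7 higher) and 13 with the replicate block (7 lower), where IL18R1, IL20RB, IL23R, IL27RA and TNFRSF8 were added. Over all genes, 618 were called with library totals (103 lower), 1500 without a filter (962 higher, 538 lower), 1194 by DESeq2 (398 lower) and 1733 with the replicate block (1082 higher, 651 lower). The share of calls that were higher was 76.0%, against 83.3% with library totals, 66.7% by DESeq2, 64.1% without a filter, 62.4% with the block and 54.9% without empty vector replicate 2. Over genes, libraries sharing a replicate number deviated together with r = 0.27. The labels give no shared batch for a number, so no pairing was assumed. Causes were not tested, except that fewer or more genes are tested by construction with another filter.

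With each library left out, and its group's lone library assumed to vary like the other pair, the receptor genes called ran from 1 to 11 (0 to 6 higher, 1 to 6 lower) and all genes called from 286 to 1336 (228 to 922 higher, 58 to 602 lower). Direction turned for IL9R, with log2 fold changes of -0.01 (DESeq2 size factors), -0.02 (no filter), -0.03 (DESeq2), -1.70 (limma voom) and -0.48 (block). With a library left out, the range spanned 0 for IL9R (-6.72 to 0.95), CSF2RB (-0.39 to 0.71), IL10RB (-0.01 to 0.05), IL13RA1 (-0.06 to 0.16), IL17RB (-0.09 to 0.73), IL17REL (-0.24 to 1.36), IL1R1 (-0.02 to 0.19), IL1RAP (-0.03 to 0.53), IL1RAPL1 (-0.12 to 1.07), LIFR (-0.95 to 0.09), OSMR (-0.13 to 0.73), TNFRSF12A (-0.32 to 0.56), TNFRSF13C (-2.23 to 0.32), TNFRSF14 (-0.16 to 0.72), TNFRSF18 (-0.72 to 2.68), TNFRSF6B (-0.23 to 0.55) and FAS (-0.58 to 0.35). RUNX1 and ERG were called throughout, except that ERG is not tested with at least 10 counts in every library. Genes under about 10 counts in a library are limited by depth.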

Other observations

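Among the ligands that did not pass the test, some were high in empty vector replicate 1 only. IL23A, a subunit of IL-23, had 1444 counts there and 472 to 699 in the other libraries, and TSLP had 259 counts there and 97 to 110 in the others. LIF, the ligand of LIFR, had 39 and 56 counts with the empty vector and 27 and 12 counts with RUNX1::ERG, a log2 fold change of -1.55 (adjusted p = 0.166, edgeR's quasi-likelihood test). IL6, the ligand of IL6R, overlapped between the groups at 134 and 114 counts against 113 and 121 counts. TRAF1, an adaptor that NF-kB induces, was at 0.581 and 0.893 CPM against 1.49 and 2.10 CPM, with a log2 fold change of 1.28 (adjusted p = 0.122, edgeR). Of the growth factor receptors outside the naming rule, LEPR, the leptin receptor, overlapped between the groups at 121 and 170 CPM against 95.1 and 154 CPM.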
